A study of Homo sapiens with 6 samples.

Results

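The giant cadherins are the FAT, Dachsous and CELSR proteins, which are described here together with the kinase gene FJX1. The 10 genes were FAT1, FAT2, FAT3, FAT4, DCHS1, DCHS2, CELSR1, CELSR2, CELSR3 and FJX1, found by their symbols among 20532 genes of a read count table. They were selected on their fold changes between siPRMT1 and control libraries, which were known when the family was picked, so their values in that comparison are a description and carry no p-value. The 6 RNA libraries came from MDA-MB-231 M3, a line of human triple-negative breast cancer cells derived from MDA-MB-231 that spreads to bone. Of these, 3 were made from cells in which PRMT1 was knocked down with a small interfering RNA (siPRMT1), and 3 from control cells of the same line. PRMT1 carries out most of the asymmetric dimethylation of protein arginines. For the controls the labels say untreated or control; a mock transfection, a control siRNA, the siRNA sequences and the time after transfection are not stated in them.

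Giant cadherins are very long single-pass or multi-pass membrane proteins whose outer part is a chain of cadherin repeats. In Drosophila, Fat on one cell binds Dachsous on its neighbour, the Golgi kinase Four-jointed (the relative of FJX1) phosphorylates their cadherin repeats and tunes this binding, and the pair orients cells in the plane of a tissue and feeds into the Hippo growth pathway. In mammals FAT4 and DCHS1 form such a pair. FAT1 acts at cell edges and junctions and is a recurrent target of inactivating mutations in carcinomas. The CELSR proteins, relatives of Drosophila Flamingo, join cadherin repeats to a receptor of the adhesion G protein-coupled class and bind each other between cells as part of the core planar polarity complex.

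Total counts ran from 16968563 to 20545995 per siPRMT1 library and from 17921097 to 19645127 per control library. PRMT1 had 193, 218 and 181 counts in the siPRMT1 libraries, against 3160, 2991 and 3072 in the control libraries. The cell line showed the markers VIM, CD44, KRT8 and KRT18. VIM had 35897 to 43528 counts in siPRMT1 and 36334 to 39540 in control, and CD44 had 10535 to 13018 in siPRMT1 and 23184 to 25142 in control. KRT8 had 22974 to 27436 in siPRMT1 and 10410 to 11500 in control, and KRT18 had 13643 to 16521 in siPRMT1 and 5069 to 5557 in control. ESR1 and PGR had 3 counts or fewer in every library, and SPARC, listed as a marker of the line, had at most 16 counts. ERBB2, the gene of the HER2 receptor, had 1124 to 1378 counts in siPRMT1 and 1209 to 1350 in control. Of the epithelial genes, CDH1 had 9 to 21 counts in siPRMT1 and 18 to 28 in control, and EPCAM had 309 to 386 in siPRMT1 and 250 to 274 in control. Of 10 markers of leukocytes, endothelium, bone cells and liver, 6 had at most 5 counts in every library, and the summed counts of the 10 (380 to 467 in siPRMT1, 450 to 506 in control) were mostly PECAM1 and overlapped between groups. Among the bone markers, BGLAP had 59 to 75 counts in siPRMT1 and 20 to 25 in control, and ACP5 had 9, 12 and 6 in siPRMT1 and 5, 2 and 2 in control, both without overlap. Genes of the mitochondrial genome took 8.73%, 8.64% and 8.74% of the counts in the siPRMT1 libraries, against 5.08%, 5.001% and 5.09% in the control libraries. The part of these markers and of the mitochondrial share in the results was not tested. Of 13710 tested genes, 89.3% passed an adjusted p of 0.05 (quasi-likelihood test of edgeR, adjusted by Benjamini-Hochberg), 45% lower and 44.3% higher in siPRMT1. With scaling by library size alone, in place of edgeR's TMM scaling, the median of all genes moved by -0.317 on the log2 scale and the called genes split into 4588 higher and 7593 lower, against 6078 and 6165. The labels call the replicates biological without saying that they came from separate transfections. The p-values thus rest on the spread between these libraries, which may be technical, with the variance moderated across genes. The standard error (SE) of each edgeR value was back-calculated, as the size of the log2 fold change over the square root of its F statistic. Such an SE is not a direct estimate of a gene's own spread and may understate the error of large falls.

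RefSeq windows of 300 bases around the transcription start (250 before and 50 after it, GRCh38.p14) were on hand for 6 of the 10 genes. The windows of 3 of them are shown because they belong to the FAT gene with the most reads, to a CELSR gene that fell and to the kinase gene. Each is written 5′ to 3′ on its own strand, with any full match to a cyclic AMP response element (TGACGTCA) or an E-box (CACGTG) in capitals. The CELSR2 window holds neither and so has no capitals. FAT1 has 2 windows, of which only the one with a TGACGTCA is shown. The other (chr4:186723807-186724106, minus strand) holds neither motif.
FAT1 (chr4:186726647-186726946, minus strand): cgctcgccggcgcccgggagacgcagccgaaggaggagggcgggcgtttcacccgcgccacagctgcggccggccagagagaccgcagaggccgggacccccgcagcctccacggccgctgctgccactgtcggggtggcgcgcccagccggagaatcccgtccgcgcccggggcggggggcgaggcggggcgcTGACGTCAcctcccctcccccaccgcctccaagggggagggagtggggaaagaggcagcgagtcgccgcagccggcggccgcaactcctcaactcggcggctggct
CELSR2 (chr1:109249289-109249588, plus strand): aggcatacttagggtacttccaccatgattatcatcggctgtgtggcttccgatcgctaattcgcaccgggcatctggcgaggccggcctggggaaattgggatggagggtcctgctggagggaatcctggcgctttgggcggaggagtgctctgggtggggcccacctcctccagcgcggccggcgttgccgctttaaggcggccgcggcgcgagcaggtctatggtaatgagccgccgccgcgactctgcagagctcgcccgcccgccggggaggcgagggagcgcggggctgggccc
FJX1 (chr11:35618210-35618509, plus strand): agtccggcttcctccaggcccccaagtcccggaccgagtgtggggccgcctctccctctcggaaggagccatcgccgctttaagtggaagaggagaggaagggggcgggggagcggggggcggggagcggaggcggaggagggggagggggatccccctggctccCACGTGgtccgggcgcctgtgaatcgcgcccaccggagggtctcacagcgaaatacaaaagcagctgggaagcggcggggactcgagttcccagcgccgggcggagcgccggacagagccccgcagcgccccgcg
All 3 are rich in CpG, with 40, 30 and 31 CpG dinucleotides against a median of 14 over 35116 windows. TGACGTCA occurs in 1.85% of all windows and CACGTG in 7.26%, counted on both strands. The core of the TEAD motif, GGAATG, occurs in 14% of all windows and in none of the 7 windows of these genes (FAT1 has 2). A match or its absence describes the letters of the window only.

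FAT1, FAT3 and FAT4 fell, while FAT2 was too scarce to test. FAT4 (ENSG00000196159; hg38, chr4:125314918-125491768, plus strand, 18 exons in its canonical transcript) had 73, 71 and 57 counts in the siPRMT1 libraries, against 1110, 989 and 1091 in the control libraries. As CPM, the counts relative to library size after TMM scaling, these were 4.53, 3.86 and 3.74 CPM in siPRMT1 and 50.7, 49.4 and 51.3 CPM in control. Every siPRMT1 library was far under every control library, and the fold change was 12.5-fold lower (log2 fold change -3.64, SE 0.0739). The SE of FAT4 was larger with DESeq2 (0.117) and limma-voom (0.108). DESeq2 gave a larger SE than edgeR for every tested gene of the family. The rank of FAT4 among the 13710 tested genes was 30 from the lowest. In a bulk sample such a difference cannot tell fewer cells that express the gene from less RNA per cell.

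FAT1 (ENSG00000083857; chr4:186587794-186726722, minus strand) was the cadherin of the family with the most reads. It had 71.5, 74.1 and 76.1 CPM in the siPRMT1 libraries, against 233, 226 and 234 CPM in the control libraries. The groups did not overlap, and FAT1 fell 3.12-fold (log2 fold change -1.64, SE 0.0271). FAT3 (ENSG00000165323; chr11:92224818-92896452, plus strand), best known from neurons, was scarce, with 7, 6 and 8 counts in siPRMT1 against 52, 42 and 43 in control. It fell by 2.34 on the log2 scale (SE 0.283), without overlap, and it passed the filter on low counts only through the control libraries, so a difference was built into its being tested. FAT2 (ENSG00000086570; chr5:151504092-151591331, minus strand), a gene of stratified epithelia, had 2, 2 and 4 counts in siPRMT1 and 5, 6 and 1 in control. It did not pass the filter, its groups overlapped, and no difference was detectable at this depth.

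**Figure D1:**
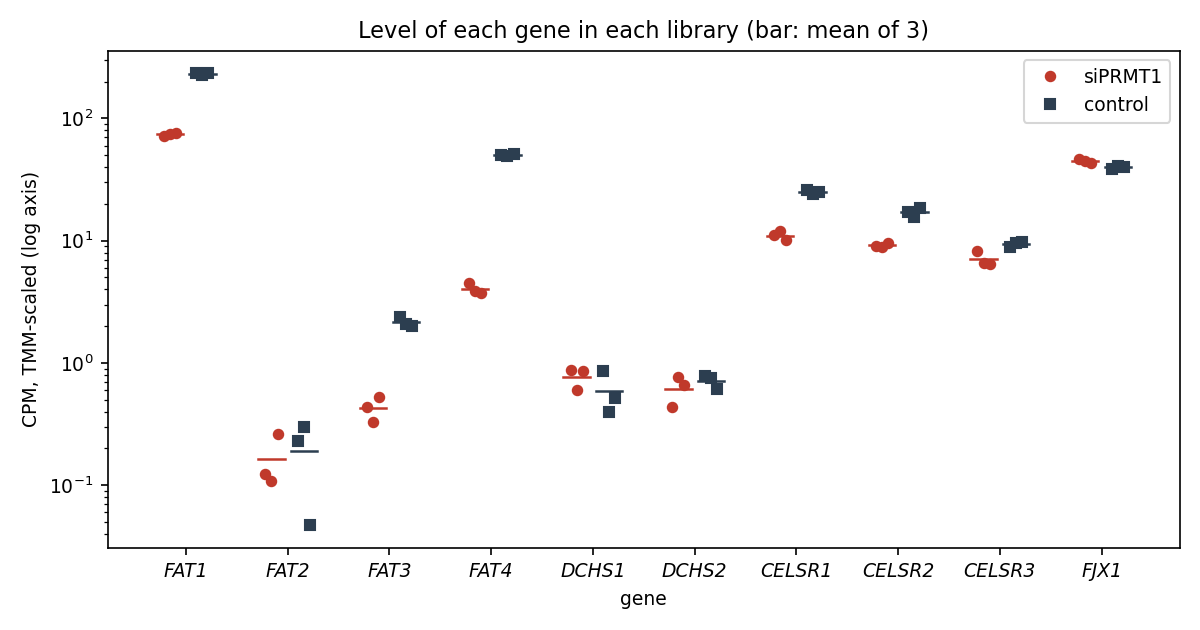
Levels of the 10 genes in each library, in TMM-scaled CPM on a log axis, with siPRMT1 libraries as circles to the left of the control libraries as squares and a bar for the mean of 3. FAT1, FAT3, FAT4, CELSR1, CELSR2 and CELSR3 have every siPRMT1 library under every control library, from 4.04 against 50.5 CPM on average for FAT4 to 7.05 against 9.39 CPM for CELSR3.

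The Dachsous genes, of which DCHS1 encodes the binding partner of FAT4, stood near the detection limit in both groups. DCHS1 (ENSG00000166341; chr11:6621330-6655809, minus strand) had 14, 11 and 13 counts in the siPRMT1 libraries and 19, 8 and 11 in the control libraries, 38 in each group. Its log2 fold change of 0.34 (SE 0.333) was about the size of its error. DCHS2 (ENSG00000197410; chr4:154231742-154491334, minus strand) had 7, 14 and 10 counts in siPRMT1 and 17, 15 and 13 in control, with a log2 fold change of -0.19 (SE 0.336), and its sign turned to 0.73 after the correction for GC content and length given below. Both sets of counts overlapped between groups. In GENCODE release 44 exons of DCHS1, DCHS2 and FAT2 overlap exons of long noncoding genes on the other strand, the longest overlaps being 820, 1180 and 596 bases. No label gives the strand setting of the counting, so some of their few reads may belong to those genes. The ligand of FAT4 was thus measured with too few reads to place it: FAT4 had 5.21, 6.45 and 4.38 reads for each DCHS1 read in siPRMT1, against 58.4, 124 and 99.2 in control.

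All 3 CELSR genes fell, in the order of their control levels. CELSR1 (ENSG00000075275; chr22:46360834-46534200, minus strand), whose mouse relative is needed for planar polarity of skin and neural tube, had 11.04, 11.9 and 10.1 CPM in the siPRMT1 libraries, against 25.8, 24.1 and 25.1 CPM in the control libraries. That is 2.26-fold lower (log2 fold change -1.18, SE 0.0683). CELSR2 (ENSG00000143126; chr1:109249539-109274309, plus strand) had 9.06, 8.81 and 9.59 CPM in siPRMT1 and 17.1, 15.6 and 18.5 CPM in control, and fell 1.87-fold (-0.90, SE 0.0786). CELSR3 (ENSG00000008300; chr3:48636463-48662886, minus strand), which in mouse guides axon tracts with CELSR2, had 8.19, 6.53 and 6.44 CPM in siPRMT1 and 8.95, 9.50 and 9.74 CPM in control. The groups of CELSR3 came close but did not overlap, and it fell 1.33-fold (-0.42, SE 0.0967). The steps to CELSR3 also show in ratios of raw counts, which need no scaling. CELSR1 had 1.35, 1.83 and 1.57 reads for each CELSR3 read in siPRMT1, against 2.89, 2.54 and 2.57 in control. CELSR2 had 1.11, 1.35 and 1.49 reads for each CELSR3 read in siPRMT1, against 1.91, 1.64 and 1.90 in control. Neither ratio overlapped between groups. CELSR1 had 1.22, 1.352 and 1.05 reads for each CELSR2 read in siPRMT1, against 1.51, 1.54 and 1.356 in control. The groups of this last ratio nearly touched.

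FJX1 (ENSG00000179431; chr11:35618460-35620852, plus strand), a gene of 1 exon and a known transcriptional target of YAP, was called slightly higher with TMM scaling. It had 46.2, 44.6 and 43.03 CPM in the siPRMT1 libraries, against 38.3, 41.0 and 40.4 CPM in the control libraries. The groups lay close together without overlap, and FJX1 rose 1.12-fold (log2 fold change 0.16, SE 0.0436). Its sign depends on the scaling, being -0.15 with library size alone and -0.84 once GC content and length were corrected for. In ratios of raw counts, which do not depend on the scaling but are not corrected for GC content and length, FAT1 had 1.55, 1.66 and 1.77 reads for each FJX1 read in siPRMT1 and 6.08, 5.50 and 5.79 in control, and FAT4 had 0.098, 0.0866 and 0.087 in siPRMT1 and 1.32, 1.21 and 1.27 in control.

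Of the 9 tested genes, 6 passed the threshold lower and 1 higher, beside 45% and 44.3% of all tested genes, and 4 were at least 2-fold lower, beside 21%. The libraries of the groups did not overlap for these 7, as for 89.1% of all tested genes. The median log2 fold change of the 9 was -0.90, against -0.0082 over all tested genes. Because the genes were picked with this comparison known, these counts are not evidence about the family.

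Compared per kilobase of the canonical transcript, the levels in siPRMT1 ran, from high to low, FJX1 (18.5 CPM per kilobase), FAT1 (5.002), CELSR1 (0.954), CELSR2 (0.831), CELSR3 (0.591), FAT4 (0.236), DCHS1 (0.0722), DCHS2 (0.0462), FAT3 (0.022) and FAT2 (0.0112). In control they ran FJX1 (16.6), FAT1 (15.6), FAT4 (2.94), CELSR1 (2.16), CELSR2 (1.55), CELSR3 (0.787), FAT3 (0.111), DCHS1 (0.0555), DCHS2 (0.0534) and FAT2 (0.013). FAT4 thus stood above all 3 CELSR genes in control and below them in siPRMT1. DCHS1 and DCHS2 in control were closer than their SDs (0.0227 and 0.0066). CELSR1 and CELSR2 in siPRMT1 changed places when merged exon length was used (0.687 and 0.713), so their order is not settled. In siPRMT1 the library values of DCHS1 overlapped those of DCHS2, and those of FAT3 overlapped those of FAT2.

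Reads of all 10 genes made up 0.0136% of the counts in each siPRMT1 library, against 0.0422%, 0.0412% and 0.0426% in the control libraries. Among the reads of the 9 cadherin genes FAT1 kept its place, with 69.0% ± 1.48 of the reads in siPRMT1 and 68.6% ± 0.206 in control (SD, n = 3 each). FAT4 had 4.26% (95% Wilson interval 3.405 to 5.33), 3.61% (2.87 to 4.53) and 3.46% (2.68 to 4.45) in the siPRMT1 libraries. It had 14.9% (14.1 to 15.7), 15.1% (14.2 to 15.97) and 15.03% (14.2 to 15.9) in the control libraries. These intervals cover counting error only. CELSR1 took 10.3% ± 0.897 in siPRMT1 and 7.43% ± 0.147 in control, CELSR2 took 8.54% ± 0.314 and 5.07% ± 0.331, and CELSR3 took 6.58% ± 0.978 and 2.79% ± 0.142. The family's reads were thus fewer in siPRMT1, with a smaller share for FAT4 and larger ones for the CELSR genes. Per FAT1 read there were 0.0633, 0.0521 and 0.0492 FAT4 reads in siPRMT1, against 0.217, 0.219 and 0.220 in control.

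**Figure D2:**
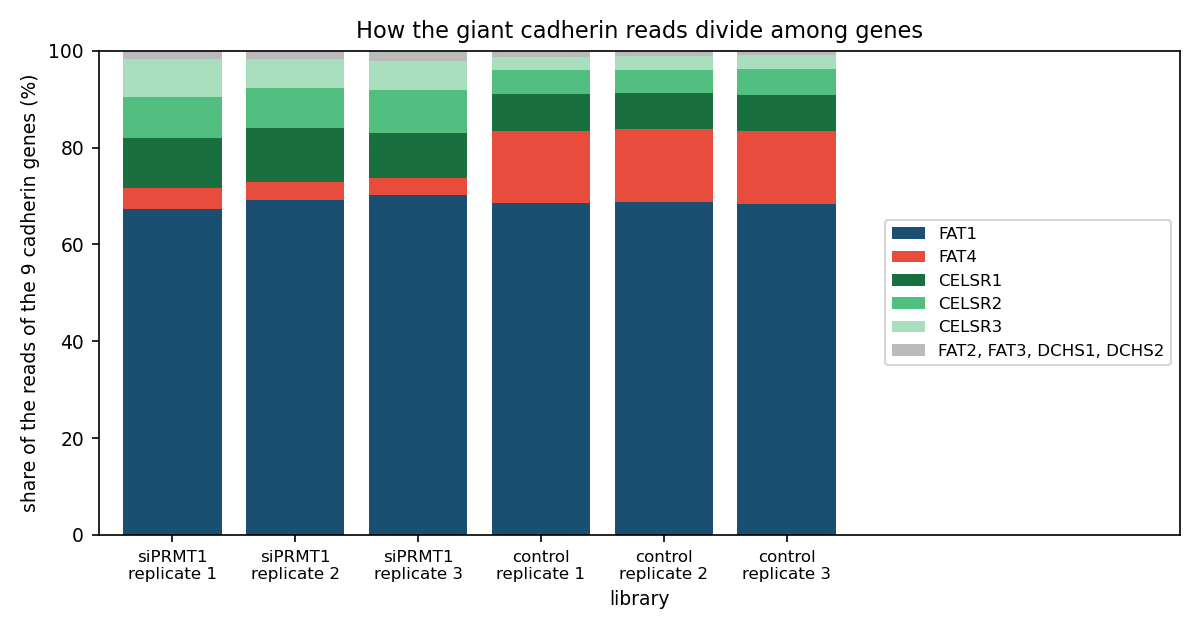
Share of the reads of the 9 cadherin genes taken by each gene (percent, stacked) in the 3 siPRMT1 libraries on the left and the 3 control libraries on the right. FAT1 takes between 67.3% and 70.3% in siPRMT1 and between 68.4% and 68.8% in control, while FAT4 takes at most 4.26% in siPRMT1 and at least 14.9% in control.

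The cadherin genes share long transcripts and differ in base composition. Canonical transcripts ran from 10713 bases (DCHS1) to 19504 bases (FAT3), against 2406 bases for FJX1. GC content was 46.3% for FAT1, 45.5% for FAT3, 45.8% for FAT4 and 45.8% for DCHS2. It was 62.3% for CELSR1, 61.3% for CELSR2, 61.4% for CELSR3, 61.9% for DCHS1 and 64% for FJX1. Across all genes of these libraries the fold change moves with both properties. The median log2 fold change was -1.29 for the 438 tested genes with over 10000 bases and less than 50% GC (quartiles -1.82 and -0.73). FAT1 lay within these quartiles, while FAT3 and FAT4 lay below them and DCHS2 above. For the 22 of that length and more than 60% GC it was -0.24 (quartiles -0.72 and 0.32). CELSR1 and CELSR2 lay below these quartiles, CELSR3 within them and DCHS1 just above. For the 561 genes between 2000 and 3000 bases with more than 60% GC it was 0.96 (lower quartile 0.62), and 3.03% of them were called lower. FJX1 lay below that quartile. The classes include these genes themselves, and the part that length and base composition play in each value was not tested.

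**Figure D3:**
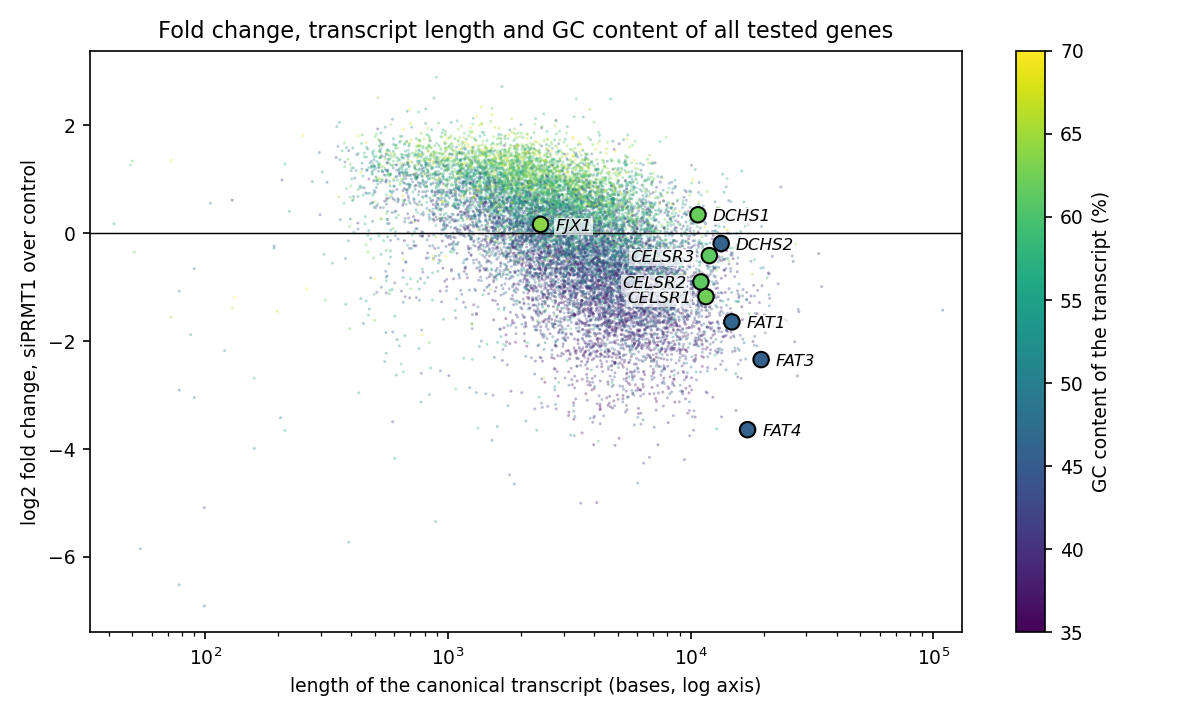
Log2 fold change (siPRMT1 over control) against the length of the canonical transcript in bases (log axis) for all tested genes, coloured by GC content in percent, with the 9 tested genes of the family as large circles. FAT4 lies at -3.64, while the GC-rich CELSR genes lie between -1.18 and -0.42.

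A correction removed the smooth trend of each library on GC content and length. With it, 7 of the 9 were called lower, FJX1 now among them, and 1 higher, beside 42.6% lower and 37.7% higher among 13694 genes. The 1 called higher was DCHS2, at 0.73 (SE 0.329). It had only 31 counts in siPRMT1 and 45 in control, summed over libraries, and was not called without the correction. FAT4 remained the lowest at -2.70 (SE 0.0757), followed by FAT3 at -1.40 (SE 0.291). CELSR1 was -1.26 (SE 0.067), CELSR2 -0.97 (SE 0.0784) and CELSR3 -0.46 (SE 0.0975), each slightly further down than without the correction. FAT1 shrank to -0.74 (SE 0.028), which placed it above CELSR1 and CELSR2. FJX1 turned to -0.84 (SE 0.0405), and DCHS1 stayed within its error at 0.25 (SE 0.327).

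**Figure D4:**
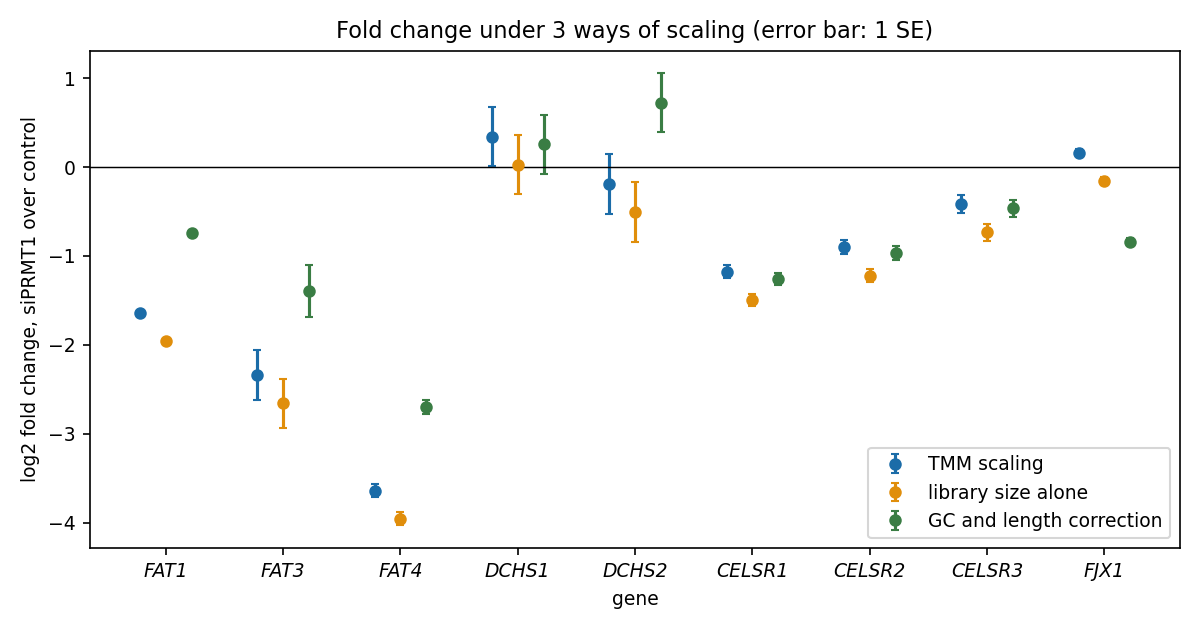
Log2 fold changes (siPRMT1 over control) of the 9 tested genes with TMM scaling, with library size alone and after the GC and length correction, with error bars of 1 SE. FAT4 is lowest in all 3, at -3.64, -3.96 and -2.70, the CELSR genes stay below 0, and FJX1 is 0.16, -0.15 and -0.84.

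Planar polarity genes, a list of core members that act with the CELSR proteins and of effectors and Wnt co-receptors, moved in both directions. Of 20 such genes, 19 were tested, of which 12 fell and 5 rose, beside 45% lower and 44.3% higher among all tested genes. Their log2 fold changes had a median of -0.43. With the GC and length correction 5 were lower and 10 higher, beside 42.6% lower and 37.7% higher among all genes. The median was then 0.22, so the direction of the list depends on the correction. The membrane receptor gene FZD6 had 15.3 ± 1.57 CPM in siPRMT1 and 94.3 ± 0.917 CPM in control (SD, n = 3 each), a log2 fold change of -2.62 (SE 0.0469; -1.78 corrected). PRICKLE3, a cytoplasmic member of the core group, had 252 ± 5.68 CPM in siPRMT1 and 89.1 ± 1.39 CPM in control (1.502, SE 0.0251; 0.80 corrected). The Dishevelled genes DVL1 (1.01; 0.17 corrected) and DVL2 (0.83; 0.12 corrected), whose products relay signals from Frizzled receptors, and FUZ (1.80; 0.61 corrected), a planar polarity effector in cilium formation, rose. RYK (-1.07; -0.83 corrected), a Wnt co-receptor gene, fell. These 6 had the smallest adjusted p of the list, at most 2.46e-62 in edgeR's quasi-likelihood test, adjusted over all genes. Relatives of PRICKLE3 fell, PRICKLE1 at -0.93 (-0.26 corrected) and PRICKLE2 at -0.55 (0.35 corrected), while PRICKLE4 was not called. The third Dishevelled gene, DVL3, rose (0.62; 0.51 corrected).

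A list of 23 genes held partners of FAT and Dachsous together with Hippo and polarity regulators and relatives of Drosophila genes of this pathway. Of these, 22 were tested, of which 14 fell and 7 rose, beside the same 45% and 44.3% of all tested genes. The median log2 fold change was -0.51. Corrected, 15 were lower and 4 higher, beside 42.6% and 37.7% of all genes, with a median of -0.30. FRMD6, a relative of the Drosophila Hippo regulator Expanded, had 23.4 ± 0.606 CPM in siPRMT1 and 165 ± 4.32 CPM in control (-2.82, SE 0.0377; -2.02 corrected). CTNNB1, the gene of beta-catenin, which binds the inner part of FAT1, had 147 ± 5.56 CPM in siPRMT1 and 426 ± 7.99 CPM in control (-1.54, SE 0.0202; -1.14 corrected). The scaffold gene DLG1 (-1.90; -0.90 corrected) and the kinase gene TAOK1 (-2.18; -0.92 corrected), whose product activates Hippo kinases, fell. CSNK1D (0.88; 0.45 corrected), a relative of the casein kinase that phosphorylates Fat in Drosophila, and ATN1 (1.02; 0.48 corrected), whose Drosophila relative binds Fat, rose. Each of these 6 had an adjusted p of at most 3.69e-122 by the same edgeR test. The paralogs of the risers went the other way. CSNK1E, paralog of CSNK1D, was -0.41 (-1.07 corrected), and RERE, paralog of ATN1, was -0.55 (-0.43 corrected). The cell polarity scaffold gene SCRIB was called higher at 0.27, but its value was -0.051 when only library size was used and -0.22 corrected.

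The closest relatives by domain also held genes that fell and genes that rose. Of 51 other cadherin and calsyntenin genes 16 were tested, of which 7 fell and 6 rose, beside 45% lower and 44.3% higher among all tested genes. Among those that fell, PCDH20 had 10 summed counts in siPRMT1 against 93 in control, and CDH2 had 18 against 46. Their siPRMT1 libraries alone would not have passed the filter on low counts, so a difference was built into their being tested. The median of the 16 was -0.061, but 0.31 after the correction (4 lower and 9 higher, beside 42.6% and 37.7% of all genes). With single libraries left out and 16 or 17 genes tested, it was -0.31 without siPRMT1 replicate 1, -0.36 without siPRMT1 replicate 2, 0.020 without siPRMT1 replicate 3, -0.16 without control replicate 1, -0.014 without control replicate 2 and -0.0019 without control replicate 3. CDH11, a mesenchymal cadherin gene, had 97.0 ± 1.96 CPM in siPRMT1 and 264 ± 4.59 CPM in control (-1.44, SE 0.0248; -0.56 corrected), and the desmosomal gene DSG2 (-1.84; -0.94 corrected) fell as well. CLSTN3 (0.95; 0.49 corrected), CDH4 (1.03; 0.87 corrected), CDH24 (1.08; 0.32 corrected) and CLSTN1 (0.32; 0.12 corrected, and 0.0031 with library size alone) rose, each with an adjusted p of at most 6.78e-33 by edgeR's quasi-likelihood test. Of 28 other adhesion receptor genes of the G protein-coupled class, the class to which CELSR proteins belong, 16 were tested. Of these, 9 fell and 5 rose, beside the same 45% and 44.3% of all tested genes. With library size alone 11 were lower and 3 higher, beside 7593 and 4588 of the 13710 tested genes. After the correction 9 were lower and 4 higher, beside 42.6% and 37.7% of all genes. The limit of low siPRMT1 counts also holds for ADGRF3, which fell, with 16 summed counts in siPRMT1 against 59 in control. The median of the 16 was -0.93, and -0.56 after the correction. It was -0.46 without control replicate 2, -0.50 without siPRMT1 replicate 3, -0.59 without siPRMT1 replicate 1 and -0.61 without control replicate 1, with 17 or 18 genes tested, and -0.93 without either of the other libraries. ADGRF5 had 77.7 ± 2.09 CPM in siPRMT1 and 337 ± 4.55 CPM in control (-2.11, SE 0.0247; -1.36 corrected). ADGRG6 (-2.30; -1.25 corrected), the latrophilin gene ADGRL2 (-1.94; -0.81 corrected) and ADGRA3 (-1.36; -1.03 corrected) fell, and ADGRE5, the gene of the leukocyte antigen CD97 (0.71; 0.14 corrected), and ADGRG1 (0.96; 0.60 corrected) rose, each with an adjusted p of at most 1.18e-54 by the same test. No test compared these lists with the giant cadherins, whose median was -0.90, or with all tested genes, whose median was -0.0082.

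**Figure D5:**
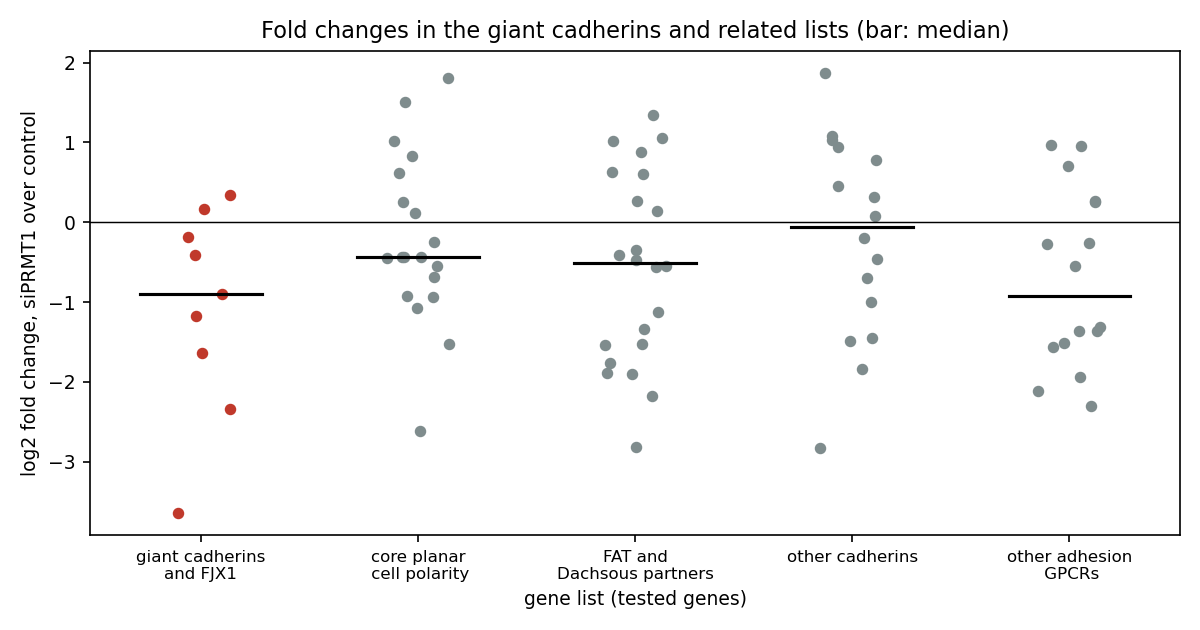
Log2 fold changes (siPRMT1 over control) of the tested genes of the family on the left and of 4 related lists, 1 point per gene and a bar at each median. The medians are -0.90, -0.43, -0.51, -0.061 and -0.93, and every list holds genes above and below 0.

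The genes nearest to FAT4 in pattern were PRMT1 (distance 0.217), PIKFYVE (0.254) and NUP58 (0.262), by the Euclidean distance of gene-centred log2 CPM over 6 libraries among 10047 genes of at least 10 CPM on average. Their log2 fold changes were -3.62, -3.75 and -3.53. DCHS1, whose estimate of 0.34 was the highest of the family with TMM scaling but not called, had RECQL5 (distance 0.71), DNAJC2 (0.749) and VIPAS39 (0.751) nearest. After the correction DCHS2 stood above it, at 0.73 against 0.25, and without control replicate 2 FJX1 did, at 0.18 against 0.13. With 2 groups, such nearness says little more than an equal fold change.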

How the data were processed

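Per the labels' protocols, TRIzol RNA went into a stranded mRNA library kit and was sequenced in pairs of 150 bases. Build hg38, STAR (2.7.6a), featureCounts, Subread (1.5.1), fastp (0.23.2) and edgeR (3.40.2) appear in the submitters' processing notes, without roles or settings. The notes and labels used here give no annotation release, strand setting or treatment of duplicates. The authors deposited raw read counts as whole numbers and a length for each gene. That length equals the merged exon length in GENCODE release 44 for 19705 genes, but exceeds the span of the deposited coordinates for 211 (FJX1 among them), so coordinates are printed as deposited.

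The 13710 genes passing filterByExpr were tested with edgeR 4.0.16 in R 4.3.3 (TMM, glmQLFit, glmQLFTest), siPRMT1 over control. The script was tested on simulated counts with few changed genes, balanced in direction. That setting is unlike these data, so the simulation does not bear on the choice of scaling. Length, GC content and exons came from the canonical transcript. The correction fitted splines of 5 degrees of freedom on each property per library. From each list, the 6 genes with the smallest adjusted p were named. Other list genes, among them SCRIB, CSNK1E, RERE, PRICKLE1, PRICKLE2 and DVL3, were added after their values were seen. Alternatives were RLE, upper-quartile and library-size scaling, DESeq2 1.42.0, limma-voom (limma 3.58.1), other filters, a replicate block and leaving out each library. The members, lists, length classes and motifs were chosen with earlier results of these data known.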

Additional observations from a re-analysis of the deposited data

How the results depend on the processing

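The count of called genes of the family was 7 in 14 of the 15 alternatives and 8 after the GC and length correction, and the numbers called in all genes and in the 4 lists stayed within 1.5 times. DCHS2 turned to 0.73 after the correction. Leaving out each library in turn gave DCHS2 log2 fold changes between -0.39 and 0.0028, DCHS1 between 0.13 and 0.72 and FAT4 between -3.73 and -3.59. FJX1 turned to -0.15 with library size alone and -0.84 after the correction. A replicate block gave 12219 called genes in place of 12243 and 7 of the family. No pairing of the libraries by their shared numbers was detected: deviations of same-numbered libraries correlated at -0.00012, -0.02 and -0.0056 over 11247 genes. With replicates this close to sampling noise, a weak pairing could be missed. Replicates differed by slightly more than sampling noise (chi-square per degree of freedom 1.05 to 1.38). Depth limits FAT2, DCHS1 and DCHS2, with at most 19 counts in any library. The cause of the shifts under the correction was not tested.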
